A study of Mus musculus with 59 samples.

Results

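The last step of reprogramming under Ctcf shRNA is described here as the change between a pair of CTCF peak lists, one from SSEA1+ cells and one from day 12 Oct4-GFP+ cells, both carrying an shRNA against Ctcf. A site of the SSEA1+ list was called kept when it overlapped a site of the day 12 list by at least 1 bp and lost when it did not, and a day 12 site with no such overlap was called gained. The step covered 51644 regions of the 102399 found in any of the 15 CTCF lists of the series, and 5 of its 59 samples.

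The cells were mouse embryonic fibroblasts with the OG2 transgene, a GFP reporter driven by Oct4 (Pou5f1) regulatory sequence. They were reprogrammed with OSKM (Oct4, Sox2, Klf4 and c-Myc) from a doxycycline-inducible lentivirus with rtTA, in ESC medium with vitamin C. SSEA1 is a surface sugar that appears on cells moving towards pluripotency, and GFP+ cells have switched the reporter on. The SSEA1+ list with Ctcf shRNA stood for 2 ChIP samples, from days 6 and 9, and the day 12 list for 3. The control arm received an shRNA against luciferase, which is not a mouse gene, with the same factors, days and numbers of samples. Other groups used below as references were day 0, Thy1+ (days 3 and 9) and SSEA1- Thy1- cells (days 6 and 9) of both arms. Unsorted day 10 cells with OSKM had no added Ctcf, added Ctcf, or added Ctcf with an shRNA against Smarca5. Embryonic stem cells (ESCs) were wild type, Smarca5 knockout, or carried an overexpressed tagged SMARCA5.

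CTCF is a zinc-finger protein that binds a long, well-conserved DNA motif and stops the cohesin ring as it extrudes chromatin loops, so its sites lie at loop anchors and domain boundaries. It also insulates promoters from enhancers, as at the imprinted H19 and Igf2 genes. Most of its sites are shared by many cell types, while a minority are cell-type specific and often lie where the motif is weaker or its DNA is methylated in other cells. SMARCA5 (SNF2H) is the ISWI-family ATPase that slides nucleosomes beside bound CTCF.

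Each group had 1 deposited list, whatever its number of samples, and no strength was given for any site. No difference between lists therefore has a replicate check, and the 95% intervals below (Wilson for shares, Newcombe for differences) cover counting error only. Sequencing depth is not known. As ChIP-seq gives no RNA levels, neither the knockdown of Ctcf nor the identity of the sorted cells, including Pou5f1 as their marker, could be checked. A site bound in fewer cells and a site bound more weakly in each cell cannot be told apart.

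Examples of DNA under kept, lost and gained sites can be read at promoters of listed genes, where RefSeq promoter sequences of GRCm38.p6 (the build of the files) cover part of a site. The examples were chosen after their values were seen, to show a kept, a lost and a gained promoter site. Each is printed 5′ to 3′ on the strand of the gene. Capitals mark the best match to the CTCF core consensus, which had 1 mismatch in each kept and lost example. Kept and lost examples were printed only where such a match lay before the start, so they do not stand for their class. With at most 1 mismatch, only 32.6% of all promoter windows touched by a kept site held a match. For windows touched by a lost site the share was 21.2%. Kept sites are shown at Snai1, a repressor of epithelial genes, and Pds5b, a cohesin regulator. Lost sites are shown at Alpl, the tissue-nonspecific alkaline phosphatase stained for in stem cell colonies, Cebpa, a myeloid and adipocyte transcription factor, and Dab2, an endocytic adaptor of extraembryonic endoderm, where the core reads on the opposite strand.
Snai1, kept, chr2:167537945-167538016: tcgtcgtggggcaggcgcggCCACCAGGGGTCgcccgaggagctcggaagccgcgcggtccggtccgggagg
Pds5b, kept, chr5:150673653-150673744: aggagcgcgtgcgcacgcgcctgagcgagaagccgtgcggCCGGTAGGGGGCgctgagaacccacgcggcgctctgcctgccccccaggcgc
Alpl, lost, chr4:137796408-137796499: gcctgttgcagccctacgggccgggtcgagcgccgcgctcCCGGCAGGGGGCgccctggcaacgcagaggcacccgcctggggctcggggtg
Cebpa, lost, chr7:35119197-35119288: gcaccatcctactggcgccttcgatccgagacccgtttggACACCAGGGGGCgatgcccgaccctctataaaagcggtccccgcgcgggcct
Dab2, lost, chr15:6386572-6386663: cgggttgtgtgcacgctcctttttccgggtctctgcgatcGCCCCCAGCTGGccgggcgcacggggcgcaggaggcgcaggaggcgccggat

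The sites at Alpl, Cebpa and Dab2 were all in the day 12 control list and in wild-type ESCs. The gained examples held no core in their windows, and the part of the window that lies before the start and inside the gained site is printed without capitals. The Pou5f1 window belongs to a downstream start annotated within the gene, and the Stat3 window, of the transcription factor that carries the LIF signal, to a start at the 5′ end of the gene. Both gained sites were also in the day 12 control and wild-type ESC lists.
Pou5f1, gained, chr17:35508557-35508667: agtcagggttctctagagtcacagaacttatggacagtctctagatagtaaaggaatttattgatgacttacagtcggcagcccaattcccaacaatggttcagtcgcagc
Stat3, gained, chr11:100939594-100939790: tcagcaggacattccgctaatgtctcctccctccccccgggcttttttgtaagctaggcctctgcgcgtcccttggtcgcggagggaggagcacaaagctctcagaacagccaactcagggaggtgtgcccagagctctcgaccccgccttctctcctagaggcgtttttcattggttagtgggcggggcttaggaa

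Under Ctcf shRNA the last step removed more sites than it added. The list went from 44622 sites in SSEA1+ cells to 35803 at day 12, a change of -19.8%, while the control list went from 51978 to 53043 (2.05%). Of the SSEA1+ sites, 28632 were kept and 15990 were lost, which was 35.8% (35.4 to 36.3), and 7202 of the day 12 sites were gained (20.1%, 19.7 to 20.5). In the control arm 8025 sites were lost (15.4%) and 9092 were gained (17.1%). The lost share was thus 20.4 percentage points larger with Ctcf shRNA (19.9 to 20.9), and the gained share 2.97 points larger (2.45 to 3.50), or 1.57 points larger (1.07 to 2.08) over sites found in at least 1 reference list. There were 2.22 lost sites for each gained site with Ctcf shRNA and 0.883 in the control arm. The day 12 list with Ctcf shRNA was also shorter than the day 12 control list (-32.5%), and the SSEA1+ lists differed in the same direction (-14.2%). How much of this comes from peak calling or depth in the shorter list was not tested.

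Most of the lost sites, like most SSEA1+ sites, were ones that the control arm held throughout. Of the 15990 lost sites, 11925 (74.6%) were in both control lists, 2632 (16.5%) were in the SSEA1+ control list and left it at day 12 as well, 645 (4.03%) were in the day 12 control list alone and 788 (4.93%) were in neither. Of all 44622 SSEA1+ sites, 39208 were in both control lists. Each control list held a smaller share of lost than of kept sites. The shares were 91.0% against 98.0% in SSEA1+ cells and 78.6% against 96.6% at day 12. Read the other way, the knockdown list lost 30.4% of the 39208 sites that both control lists held (30.0 to 30.9). It lost 77.3% of the 3403 sites that the control arm also dropped (75.9 to 78.7). Sites that left the control list thus left the knockdown list more often than sites the control arm kept. A high lost share was not particular to them. It was 79.2% of the 995 sites in neither control list (76.6 to 81.6). Of the 1016 sites in the day 12 control list alone it was 63.5% (60.5 to 66.4).

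The last step was also where most of the day 12 deficit against the control list arose. Of the 21981 day 12 control sites missing from the day 12 list with Ctcf shRNA, 12567 (57.2%, 56.5 to 57.8) had still been in the SSEA1+ list with Ctcf shRNA. A further 3395 (15.4%) were already missing there although the SSEA1+ control list held them, and 6019 (27.4%) were in neither SSEA1+ list and so are control gains that the knockdown list did not show. The reverse also occurred. Of the 9359 SSEA1+ control sites missing from the SSEA1+ list with Ctcf shRNA, 2160 (23.1%, 22.2 to 23.9) were present at day 12 with Ctcf shRNA, while 4739 (50.6%) were in the day 12 control list.

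Lost sites were found in fewer other CTCF lists than kept sites, and gained sites in fewer still. Over the 13 other CTCF lists, a kept site was in a median of 13, a lost site in 10 and a gained site in 3. Of the kept sites 58.0% were in all of these lists, against 20.0% of the lost and 0.264% of the gained sites. Sites found in no other list numbered 48 among the kept, 137 among the lost and 348 among the gained. The day 0 lists separated lost from kept sites most. They were also the shortest CTCF lists (28838 sites in the control arm, 23600 with Ctcf shRNA). The ESC lists were the longest (83173 sites in wild type, 89567 in Smarca5 knockout). Whether the separation follows list length was not tested. The day 0 control list held 72.6% of kept, 37.9% of lost and 5.55% of gained sites, a difference between lost and kept sites of -34.7 points (-35.6 to -33.8). Wild-type ESCs separated lost from kept sites least, with 97.1% of kept and 91.8% of lost sites, a difference of -5.33 points (-5.81 to -4.87), and held 74.4% of gained sites. The day 12 control list held 96.6%, 78.6% and 47.2%. Most lost and most gained sites were thus also in the wild-type ESC list, but so were most sites of either stage. That list held 42488 of all 44622 SSEA1+ sites and 33137 of all 35803 day 12 sites with Ctcf shRNA. Its share was lower among lost than among kept sites, and lowest among gained sites.

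**Figure D1:**
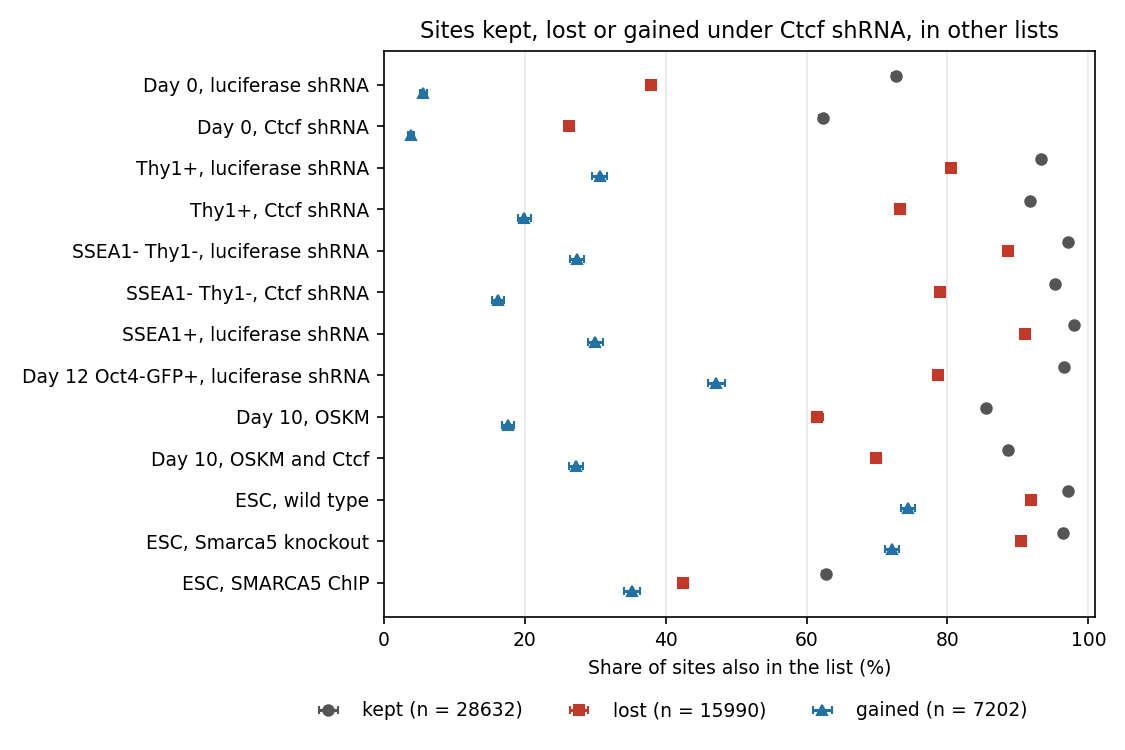
Share of the kept (grey circles), lost (red squares) and gained (blue triangles) sites of the step under Ctcf shRNA that 12 CTCF lists and the SMARCA5 list also held, with Wilson 95% intervals. Gained sites are lowest in every list shown, from 3.79% in day 0 cells with Ctcf shRNA to 74.4% in wild-type ESCs.

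Added Ctcf and the other sorted populations gave the same order of the classes. The day 10 OSKM list held 85.5% of kept, 61.5% of lost and 17.6% of gained sites, and the list with added Ctcf held 88.6%, 69.8% and 27.2%. Both other lists of sorted cells before day 12 with Ctcf shRNA, from Thy1+ and SSEA1- Thy1- cells, held 90.0% of the kept and 65.6% of the lost sites. Of the lost sites 13.3% (12.8 to 13.8) were in neither of these lists. The populations overlap in time with the SSEA1+ cells, and the day 0 list with Ctcf shRNA held 62.3% of kept and 26.3% of lost sites. For the day 3 Thy1+ samples the labels disagree on the shRNA given, and the titles were followed here.

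The gained sites fell into several groups by where else they were found. Of the 7202, 2057 (28.6%) were also gains of the control arm, being in the day 12 control list and not in the SSEA1+ control list. A further 1343 (18.6%) were in both control lists, 816 (11.3%) were in the SSEA1+ control list alone, and 2986 (41.5%) were in neither. Of the gained sites 37.5% were in both the day 12 control and the wild-type ESC list, and 36.9% were in the ESC list without the day 12 control list. Sites in no list of SSEA1+, SSEA1- Thy1- or Thy1+ cells of either arm numbered 3284 (45.6%, 44.5 to 46.8). Among the 8076 control gains that the SSEA1+ list with Ctcf shRNA lacked, 25.5% appeared at day 12 with Ctcf shRNA (24.5 to 26.4).

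Sites of the somatic and the pluripotent state were followed with the other lists as references. Pluripotent-type sites were defined as those that the day 12 control and wild-type ESC lists hold while the control lists of day 0 and Thy1+ cells do not, and they were both added and removed. They made up 1586 of the gained sites (22.0%) and 1533 of the lost sites (9.59%). Of the 2810 pluripotent-type sites in the SSEA1+ list, 54.6% were lost (52.7 to 56.4), and of the 2863 at day 12, 55.4% were gained (53.6 to 57.2). Sites in all 4 of these reference lists had lower shares, 20.7% lost and 0.768% gained. Sites of no such class had shares of the same order as pluripotent-type sites, 56.5% lost and 43.7% gained, so a high lost share was not particular to the latter. Somatic-type sites, the reverse class, were few: 47 of 70 were lost (67.1%, 55.5 to 77.0) and 19 of 42 were gained (45.2%, 31.2 to 60.1).

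Recurrence in 3 other CTCF lists of the series ordered both losses and gains. Here recurrence is the number, from 0 to 3, of the day 0 control, day 10 OSKM and wild-type ESC lists that hold a site. Sites of recurrence 0 were lost in 66.6% of cases (64.2 to 68.9, n = 1499), of recurrence 1 in 60.0%, of recurrence 2 in 49.6% and of recurrence 3 in 21.1% (20.6 to 21.6, n = 25327). The control arm lost 57.2%, 33.6%, 17.2% and 2.57% of these classes. The widest gaps between the arms were thus at recurrence 1 and 2, and the arms lay closest at recurrence 0. Sites of recurrence 3 still made up 33.4% of all lost sites, since they were the most numerous class. Gains ran the same way, from 76.9% of day 12 sites at recurrence 0 to 57.2%, 18.1% and 0.963% at recurrence 3, and 58.8% of gained sites had recurrence 1.

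**Figure D2:**
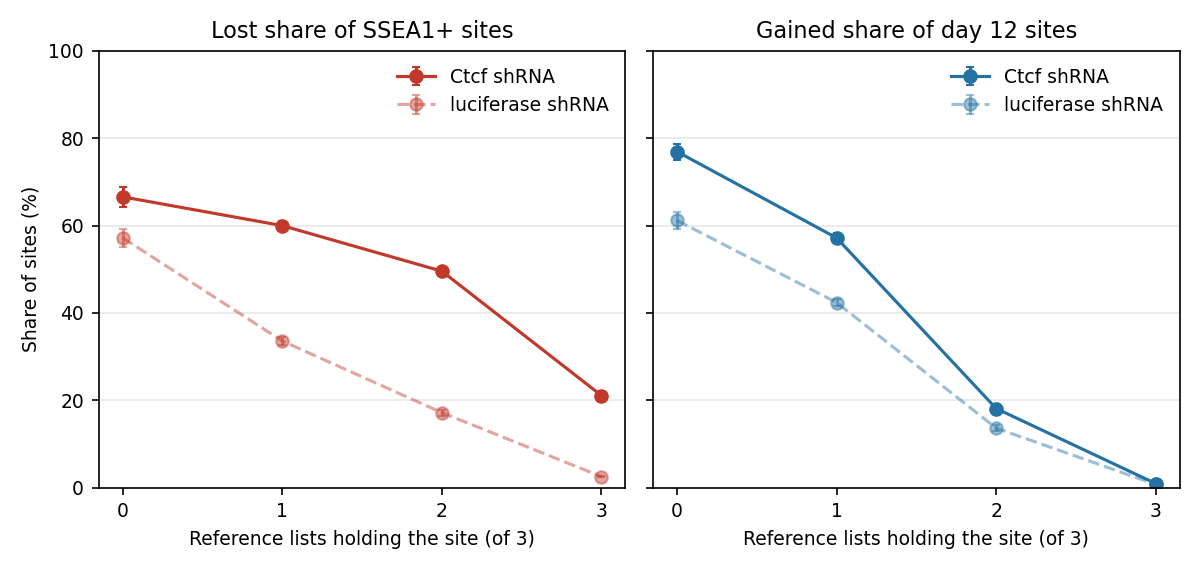
Lost share of SSEA1+ sites (left) and gained share of day 12 sites (right) against the number of reference lists holding the site, with Ctcf shRNA (solid) and luciferase shRNA (dashed) and Wilson 95% intervals. Both shares go down with recurrence, and with Ctcf shRNA 21.1% of sites in all 3 lists were lost against 2.57% in the control arm.

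Sites with a SMARCA5 peak in ESCs were lost less often. Of the 24755 SSEA1+ sites with one, 27.4% were lost (26.9 to 28.0), and of the 19867 without, 46.3% (45.6 to 47.0), a difference of -18.9 points (-19.8 to -18.0). Within recurrence 0, 1, 2 and 3 the difference was -13.97, -7.66, -8.39 and -10.3 points. The control arm gave -16.3 points over all sites and -19.1, -9.65, -9.38 and -3.00 points in these classes, so its difference was the larger at recurrence 0 to 2 and the smaller at recurrence 3. Weighting the recurrence classes by size left -9.53 points with Ctcf shRNA (-10.5 to -8.59), so part of the difference went with recurrence. Gained sites had a SMARCA5 peak in 35.2% of cases, lost sites in 42.5% and kept sites in 62.8%. The SMARCA5 list comes from an overexpressed tagged protein in ESCs and not from these cells.

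The promoter sequences showed the same order as recurrence. The search took the CTCF core consensus of 12 letters on both strands in RefSeq windows of 300 bp (250 before and 50 after each start), with at most 1 mismatch, and it overlaps no other motif searched. Of the 32817 windows, 4.33% held it. It was present in 32.6% of 1195 windows touched by a kept site (30.0 to 35.3), in 21.2% of 688 touched by a lost site (18.3 to 24.4) and in 6.87% of 582 touched by a gained site (5.09 to 9.22). Windows with no site of either list held it in 2.78% of cases. Lost windows differed from kept windows by -11.4 points (-15.4 to -7.28), and gained windows differed from lost windows by -14.3 points (-18.0 to -10.6). At sites of recurrence 3 the share was 36.5% for kept and 27.9% for lost windows. The control arm gave 29.3%, 10.4% and 6.90% for kept, lost and gained windows. The core is only part of the motif and a window covers only part of a site, so a window without a match says only that these letters are not in it.

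**Figure D3:**
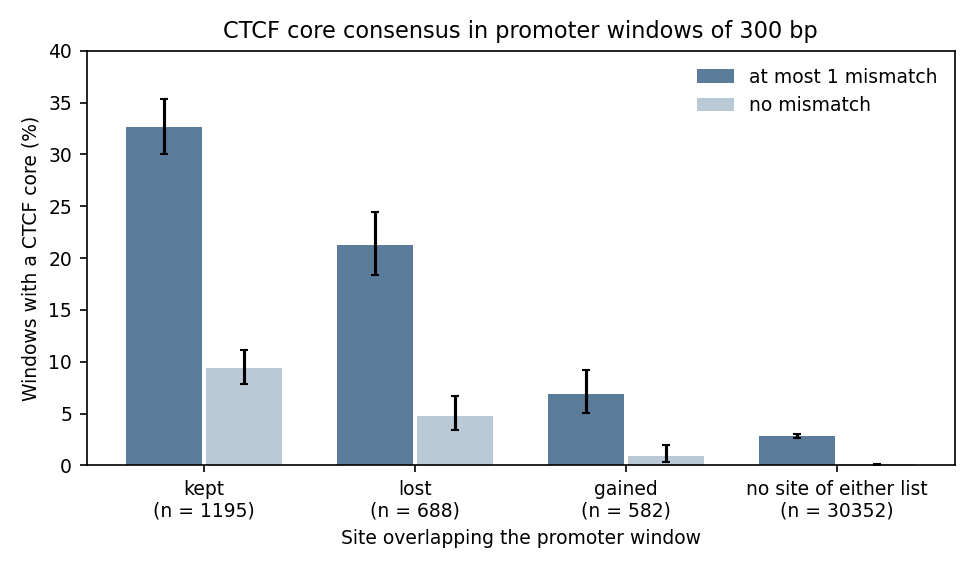
Share of RefSeq promoter windows with a match to the CTCF core consensus, by the site they overlap, with at most 1 mismatch (dark bars) or none (light bars) and Wilson 95% intervals. With 1 mismatch allowed the share is 32.6% for kept, 21.2% for lost and 6.87% for gained sites.

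Lost sites differed from kept sites by a few points in their place relative to genes, while gained sites lay at gene starts more often. Sites inside protein-coding gene spans made up 50.7% of kept, 55.0% of lost and 54.3% of gained sites. Gained sites lay within 1 kb of a gene start more often (9.37%, 8.72 to 10.1) than lost (6.81%) or kept sites (6.37%), and control gains did so in 13.0% of cases. A promoter window was overlapped by 6.37% of gained (5.83 to 6.96), 3.65% of lost and 3.63% of kept sites, and by 9.30% of control gains. Sites over 50 kb from a start made up 29.4% of lost and 25.6% of kept sites. The lost share was 37.4% within 1 kb of a start, lowest at 5 to 20 kb (33.5%) and highest beyond 100 kb (41.8%, 40.5 to 43.1). At equal recurrence, sites over 50 kb away were not lost more often than those within 1 kb at recurrence 1, 2 or 3. Their lost shares were 61.1%, 51.9% and 24.1%, against 63.5%, 56.5% and 26.6% within 1 kb. At recurrence 0 the shares were 68.0% and 61.0%. The intervals overlapped in every class. Neighbouring sites 1 to 5 kb apart (4367 pairs) differed in how often they were lost, with 43.1% beside a lost and 27.3% beside a kept site. In the 334 pairs closer than that whose intervals did not overlap, the values were 37.9% and 27.7%. The 179 pairs of overlapping intervals shared their fate in every case and are left out of these values. Over all pairs the values were 38.7% and 34.2%.

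The X chromosome lost more of its sites than any autosome. It lost 570 of 1262 sites (45.2%, 42.4 to 47.9), while the 19 autosomes ranged from 33.4% on chromosome 5 to 39.5% on chromosome 13, with a median of 35.6%. The X exceeded the pooled autosomes by 9.61 points (6.84 to 12.4). In the control arm it did not stand out: 14.03% of its sites were lost against 15.5% on the autosomes (difference -1.44 points, -3.14 to 0.433). X sites have lower recurrence, and within classes of equal recurrence the excess was 5.88 points (3.20 to 8.56), a calculation added after the data were seen. It was 7.97 points at recurrence 3 (4.39 to 11.8). At recurrence 0, 1 and 2 it was -1.50, 3.96 and 3.16 points, with intervals that include 0. The X gained 15.6% of its day 12 sites, below the autosomal range of 17.7% to 23.8%, and the control X gained 13.5%, also below its autosomal range (14.9% to 19.6%).

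**Figure D4:**
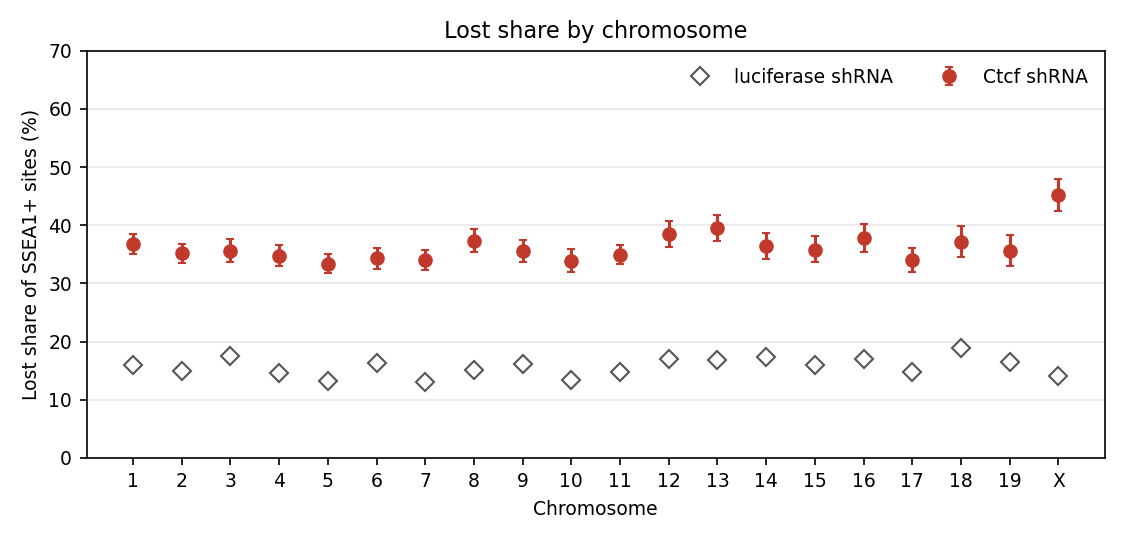
Lost share of SSEA1+ sites on each chromosome with Ctcf shRNA (red circles, Wilson 95% intervals) and luciferase shRNA (open diamonds); chromosome Y is left out because it had 10 sites. The X stands at 45.2% with Ctcf shRNA and at 14.03% in the control arm.

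Genes of the pluripotency network, the transcription factors and partners that hold the ESC state, had a pooled gained share within 10 kb above that of all sites. The interval of their pooled lost share included the share of all sites. Of the 55 SSEA1+ sites inside or within 10 kb of its 30 genes, 25 were lost (45.5%, 33.0 to 58.5) against 35.8% of all sites. Of the 47 day 12 sites, 17 were gained (36.2%, 24.0 to 50.5) against 20.1%. The median member with a site lost 50.0% of its sites, and the median over all 15421 protein-coding genes with an SSEA1+ site was 33.3%. The median gained share was 0% both over members and over all protein-coding genes with a day 12 site. Jarid2 had 4 and Pou5f1 3 of the 17 gained sites. With a window of 2.5 kb the gained share was 33.3% (19.2 to 51.2), an interval that includes the 20.1% of all sites. With a window of 50 kb the shares were 34.8% lost and 28.5% gained (21.2 to 37.0), so the lost share was then no higher than over all sites. The control arm lost 12.9% and gained 28.2% near the same genes. The day 12 control list held 23 of the 25 lost sites, and wild-type ESCs held 12 of the 17 gained ones.

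Pou5f1 (chr17:35506032-35510777) encodes Oct4, whose reporter defines the day 12 cells. It went from 3 sites to 4, with 2 lost and 3 gained, while the control arm went from 2 to 3. The reporter and OSKM also carry Pou5f1 sequence, and reads from these copies could not be told apart from those of the gene. The gained site at 35508268-35508667, inside the gene, is the one whose sequence is printed above, and it was in the day 12 control, ESC and SMARCA5 lists. The other gained sites, 1.70 and 6.83 kb outside the gene, were in neither the SSEA1+ nor the day 12 control list. The day 10 OSKM list held the farther of these, and no other list looked at held the nearer. The kept site, 3.09 kb outside the gene at 35513869-35514268, was in every reference list looked at.

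Esrrb, an orphan nuclear receptor of the ESC network, kept all 3 of its sites and gained 2, and the control arm went from 4 to 7. Dnmt3l, the catalytically inactive partner of the de novo DNA methyltransferases, went from 1 site to 3, while the control arm had 4 at both stages. Fgf4, a growth factor secreted by ESCs, went from 0 to 1, as it did in the control arm. Jarid2, a subunit of Polycomb repressive complex 2, had the most change in the list, with 5 of 7 sites lost and 4 gained. The day 12 control list held all 5 of the lost Jarid2 sites and 2 of the 4 gained ones. The control arm went from 11 sites to 8 at Jarid2, so its list also became shorter there.

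Of the 23 network genes with an SSEA1+ site, 4 were left with none. Over all protein-coding genes 1899 of 15421 (12.3%) were, and the difference was not tested. Dppa2 and Dppa3, germline and early embryo factors, and Tdgf1, a co-receptor of Nodal signalling, each went from 2 sites to 0, and Klf5, a factor related to Klf4, from 1 to 0. In the control arm Dppa2 went from 2 sites to 4, Tdgf1 from 2 to 3, and Dppa3 and Klf5 did not change in number. The 7 sites lost at these 4 genes were all in the day 12 control and ESC lists. Tbx3, a T-box factor, went from 3 sites to 1 while the control arm went from 2 to 4. Nanog went from 3 to 2, and the site it lost, inside the gene, was an ESC site that neither control list held. Sox2 and Klf4 kept all their sites, 2 and 1. OSKM includes both, and reads from the vector could not be told apart from those of the genes.

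Receptors and effectors of the LIF, BMP, WNT and FGF pathways, which keep or end the naive state, changed nearer to the rate of all sites. Their 51 SSEA1+ sites included 17 losses (33.3%, 22.0 to 47.0), and their 48 day 12 sites 14 gains (29.2%, 18.2 to 43.2). The LIF receptor gene Lifr went from 1 site to 3 and Stat3 from 3 to 5, with no loss at either. Tcf7l1, a repressor of WNT target genes, stayed at 11 sites with 4 lost and 4 gained. Bmpr1a, a BMP receptor, lost 5 of 7 sites and gained 2, and the day 12 control list held all 5 of the lost ones.

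**Figure D5:**
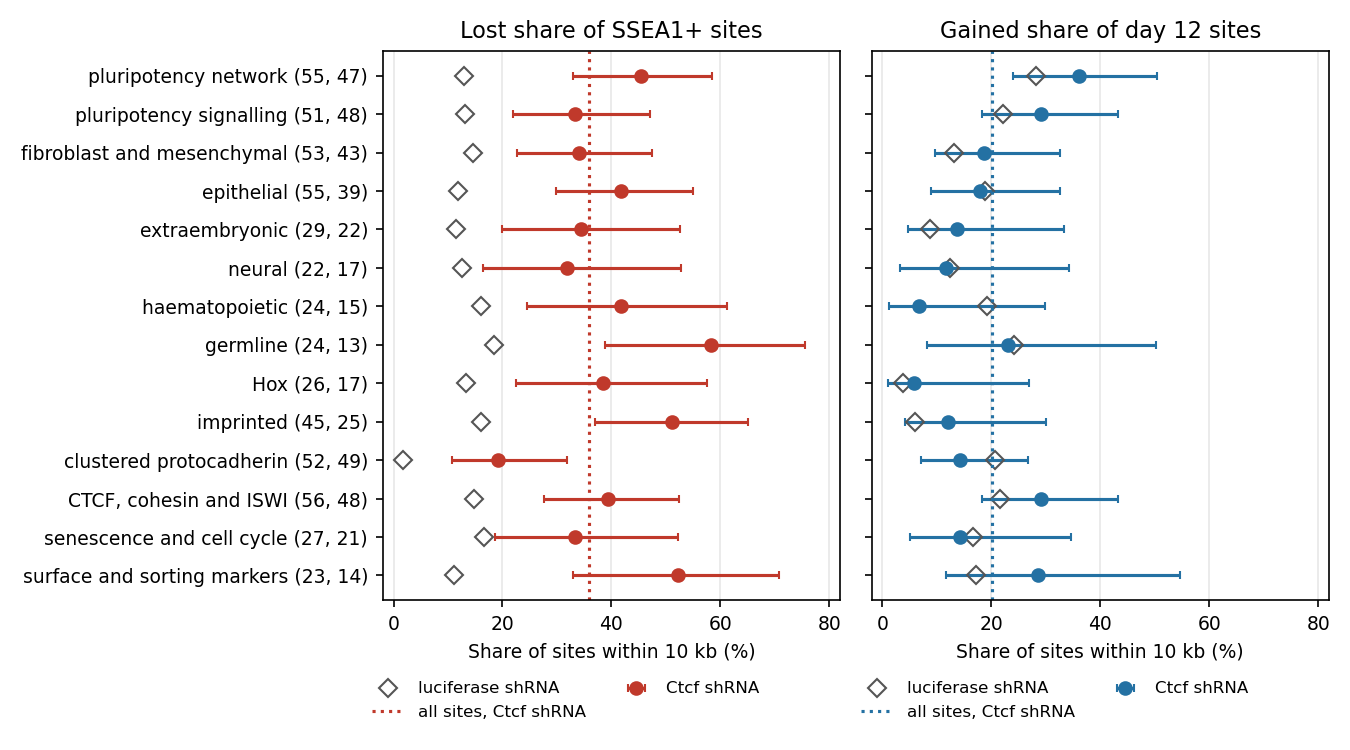
Lost share of SSEA1+ sites (left) and gained share of day 12 sites (right) within 10 kb of the genes of 14 lists with Ctcf shRNA (filled, Wilson 95% intervals) and luciferase shRNA (open), with both site numbers with Ctcf shRNA after each name and the share over all sites dotted. The lost share runs from 19.2% for clustered protocadherins to 58.3% for germline genes, and the gained share from 5.88% for Hox genes to 36.2% for the pluripotency network.

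Epithelial genes, which are switched on when fibroblasts take on epithelial form in reprogramming, had 23 losses among 55 sites (41.8%, 29.7 to 55.0) and 7 gains among 39 (17.9%). Cdh1, which encodes E-cadherin, went from 8 sites to 3 with no gain, while the control arm went from 7 to 8. Of its 5 lost sites, 4 were in the day 12 control list and 2 were in neither the day 0, Thy1+ nor SSEA1+ control list. Epcam, an epithelial adhesion molecule, went from 2 sites to 0, and Esrp1, an epithelial splicing regulator, from 3 to 0. The control arm kept the numbers at Epcam (2) and raised Esrp1 from 3 to 4.

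Fibroblast and mesenchymal genes had shares close to those of all sites, with 18 of 53 sites lost (34.0%, 22.7 to 47.4) and 8 of 43 gained (18.6%). Fbn1, a microfibril protein, lost all 3 of its SSEA1+ sites and had 1 gained site. Pdgfrb, a growth factor receptor of mesenchymal cells, went from 4 sites to 2, and the control arm from 4 to 5. The transcription factor genes Twist2 and Zeb2 each went from 1 site to 0, and at Zeb2 the control arm did so as well. Thy1, whose product is the fibroblast marker used for sorting, went from 0 to 1 with a site at chr9:44051055-44051454 that both control lists and ESCs held. Surface marker genes together lost 12 of 23 sites (52.2%, 33.0 to 70.8), an interval that includes the 35.8% of all sites, and 38.2% with a window of 50 kb. Among them Sdc1, a cell-surface proteoglycan, went from 3 sites to 0, and Alpl lost 2 of 5.

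At some imprinted genes CTCF acts as an insulator on the unmethylated allele. The imprinted genes together lost 23 of 45 sites (51.1%, 37.0 to 65.0, or 41.4% with a window of 50 kb). They gained 3 of 25 (12.0%), and 18 of the 23 lost sites were in the day 12 control list. H19, a maternally expressed RNA, went from 1 site to 0, losing chr7:142580493-142580892, 2.35 kb outside the gene. That site was in every reference list looked at. Igf2, its paternally expressed neighbour, went from 1 site to 2 and stayed at 2 in the control arm. Gnas, which encodes a G protein subunit, went from 3 sites to 0 and the control arm from 4 to 3. Kcnq1, a potassium channel gene whose span holds an imprinting centre, lost 3 of 5 sites, but 2 of these intervals overlap each other almost wholly.

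The Hox genes, which pattern the body axis and lie in clusters, lost 10 of 26 sites (38.5%, 22.4 to 57.5) and gained 1 of 17. Neighbouring genes share sites, which are counted once in these totals. Hoxa4 went from 2 sites to 0 and Hoxb3 from 3 to 0, while the control arm kept 2 and 3. The 3 sites lost at Hoxb3 were in the day 12 control, day 10 OSKM, ESC and SMARCA5 lists. The clustered protocadherins, cell-adhesion genes many of whose promoters bind CTCF, lost the smallest share of the 14 lists, with 10 of 52 sites (19.2%, 10.8 to 31.9). In the control arm 1.82% of protocadherin sites were lost. None of the 55 protocadherin genes with an SSEA1+ site was left without one, against 12.3% of all protein-coding genes with one. Many of the protocadherin genes overlap and share the same sites, so they are not 55 separate cases.

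Germline genes lost 14 of 24 sites (58.3%, 38.8 to 75.5, or 44.6% with a window of 50 kb), and Tex14, a protein of germ cell bridges, accounted for 7 of them (from 12 sites to 7). Dazl, an RNA-binding protein of germ cells, went from 2 to 0. Genes of other lineages had few sites. Extraembryonic genes lost 10 of 29 (34.5%), neural genes 7 of 22 (31.8%), haematopoietic genes 10 of 24 (41.7%) and senescence and cell cycle genes 9 of 27 (33.3%). Gata6 and Sox17, factors of primitive endoderm, Pax6 and Sox1, factors of neural progenitors, and Cdkn2a, which encodes the cell cycle inhibitors of a known barrier to reprogramming, each went from 1 site to 0. All 5 of these sites were in the day 12 control list. Lamb1, a laminin gene of the extraembryonic list, also went from 1 site to 0, and the control arm lost its site too.

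The genes of the CTCF, cohesin and ISWI machinery lost 22 of 56 sites (39.3%, 27.6 to 52.4) and gained 14 of 48 (29.2%, 18.2 to 43.2). Ctcf itself lost all 3 of its sites, which were in both control lists, and had 1 gained site that no other list looked at held. Smarca5 went from 1 site to 0, and Smarca1, the related ATPase on the X chromosome, from 2 to 0. Nipbl, the cohesin loader, went from 5 sites to 2, and Mau2, its partner, from 2 to 0. Smc3, a core cohesin subunit, kept 3 sites and gained 2, both in the day 12 control list. Site number says nothing of the expression of these genes.

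Over all protein-coding genes, 1899 of the 15421 with an SSEA1+ site (12.3%) had none at day 12, and 672 genes (10.4% of those without an SSEA1+ site) had one at day 12. The largest numbers of lost sites fell in long genes, led by Atxn1, a polyglutamine disease gene, with 12 of 19 sites lost, and Auts2 with 11 of 19. Asic2, Cdh13, Dpp6, Ptprg and Rbfox1 lost 10 each, as did Gm37013, a gene model that spans protocadherin genes, out of 52. The day 12 control list held 9 of the 12 lost Atxn1 sites, all 10 at Dpp6 and Gm37013, 9 at Rbfox1, 7 at Asic2 and Cdh13 and 5 at Ptprg. The largest numbers of gains were at Mtus2, with 10 of 27 day 12 sites, and Tmem132d, with 9 of 15, and the day 12 control list held 8 of each. Spock1, a secreted proteoglycan gene, went from 5 sites to 11 with no loss, and its 6 gained sites were all in the day 12 control list.

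The longest unbroken run of lost sites had 11 members over 648 kb (chr11:20968598-21616305, with Mdh1, Peli1, Ugp2, Vps54 and Wdpcp), and the day 12 control list held 9 of them. Runs of 10 followed at Mei4 on chromosome 9 (884 kb) and at Cacna2d3, Erc2, Lrtm1 and Wnt5a on chromosome 14 (925 kb), of which the day 12 control list held 5 and 8. The longest run of gained sites also had 11 members (chr4:146492699-147390563), among zinc-finger genes such as Rex2, Zfp978 and Zfp993, and it was followed on the same chromosome by a run of 7 at Zfp982. The day 12 control list held all 11 sites of the first run, wild-type ESCs held 3 and the SSEA1+ control list 2. These genes belong to a family of closely similar copies, so placement of reads among them is uncertain.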

How the data were processed

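CTCF ChIP-seq peak lists of mouse reprogramming cells were used, 1 per group, with no replicate values. The submitters' processing notes name MACS2, HOMER, Bowtie2, deepTools, Picard, SAMtools, bedtools, Trim Galore and FastQC, with mm10 (GRCm38) as build. Not given in the sources used here are versions, thresholds, the way samples were pooled and which of the described ChIP protocols each sample went through. The authors' deposited files hold intervals of 400 bp with a score of 0 in every line, so sites could not be ranked. Lists of sorted cells share start positions, which can raise overlaps among them. Sharing meant an overlap of at least 1 bp. Sites were assigned to genes whose RefSeq span (GRCm38.p6) lay within 10 kb, and 324 listed genes were all matched. Starts came from RefSeq promoter windows. Exons and introns were not used here. Day 3 Thy1+ samples were grouped by title, against their source name. The members and gene lists were chosen with earlier results of these data known.

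Named genes were Pou5f1 and, per list, up to 4 members with the most lost sites, up to 4 with the most gained sites and up to 4 that went to or from no site, of which the text gives a part. A gene that the rule names is not reported here. Over all genes they were the 10 with the most lost and most gained sites, and the 5 longest runs of either kind. Nanog, Sox2 and Klf4 were added after their values were seen. No test gives a p-value. Overlap, interval and motif code was tested on simulated data. Alternatives were a reciprocal overlap of 50%, leaving out X and Y, merging sites within 1 kb, recurrent sites only, gene windows of 2.5 and 50 kb and a core without mismatch. Scripts ran in Python 3.11.15 with matplotlib 3.10.9, SciPy 1.17.1 and NumPy 2.4.6.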

Additional observations from a re-analysis of the deposited data

Results flagged for a closer look

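The length of the CTCF list went in opposite directions at the last step in the knockdown and control arms, by -19.8% with Ctcf shRNA and by 2.05% with luciferase shRNA. With 1 list per group the difference was not tested.

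The number of sites near the genes of 8 of the 14 lists also moved in opposite directions in the arms. Sites near the pluripotency network changed by -8 with Ctcf shRNA and by 15 in the control arm, those near pluripotency signalling genes by -3 and 7, and those near epithelial genes by -16 and 5. Haematopoietic genes changed by -9 and 1, germline genes by -11 and 2, and clustered protocadherins by -3 and 13. Genes of CTCF, cohesin and the ISWI remodellers changed by -8 and 6, and surface and sorting markers by -9 and 2. None of these differences was tested, and all 8 follow the direction of the whole lists. In the remaining lists the control arm fell, as near imprinted genes (56 sites to 50) and Hox genes (30 to 27), or did not change, as near neural genes (24).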

How the results depend on the processing

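Of the 51 results, the changes of list length and the differences between shares kept their sign under every alternative run. The other results are shares, which cannot change sign. The lost share near some gene lists did cross the 35.8% of all sites. With a window of 50 kb it went from 45.5% to 34.8% near the pluripotency network and from 41.8% to 32.8% near epithelial genes. With 2.5 kb it went from 34.0% to 41.7% near fibroblast and mesenchymal genes and from 33.3% to 41.0% near pluripotency signalling genes. Counting only sites found in at least 1 reference list gave a lost share of 34.8% with Ctcf shRNA and 13.5% with luciferase shRNA (difference 21.3 points), and gained shares of 16.4% and 14.9% (difference 1.57 points). Merging sites within 1 kb gave gained shares of 19.6% and 16.6%. With a reciprocal overlap of 50%, ESCs held 91.0% of lost and 73.2% of gained sites. The SMARCA5 difference was -9.53 points within classes of equal recurrence. With recurrence taken from the day 0 and ESC lists alone, sites in all reference lists were lost in 22.2% of cases. The excess on the X was 5.88 points within recurrence classes, an alternative chosen after seeing the data. Within 1 kb, 57.0% of sites beside a lost site were lost, and 37.9% without overlapping intervals, also chosen after seeing the data. With a window of 2.5 kb the gained shares near Hox genes and near senescence and cell cycle genes were 0%. A core with no mismatch was held by 9.37% of kept, 4.80% of lost and 0.859% of gained windows, so the order of the classes stayed. The other 82 values lay within the interval, or within 1.5 times, of the value reported. No paired analysis was possible because each group had 1 pooled list, and replicates could not be left out for the same reason. The files give no depth, so its limits are unknown.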
